A study of Mus musculus with 6 samples.

Results

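The interferon-inducible GTPases described here are Iigp1, Irgm1, Irgm2, Igtp and Tgtp1 of the immunity-related GTPase (IRG) family and Gbp2, Gbp3 and Gbp7 of the guanylate-binding proteins (GBPs). These 8 genes were chosen by family membership around Iigp1, and Iigp1 itself was picked on its difference between ventral and dorsal arrays. For the members this difference is therefore given as a description, and no test of it is used as support. Of the 8, 7 had a row among 24973 measured probe sets, and Tgtp1 had none. The levels came from Affymetrix whole-transcript arrays of tissue around the aorta of C57Bl/6 mouse embryos at embryonic day 11.5, and the labels name no treatment or transgene for either group. The dorsal group (3 arrays) was tissue lying from the notochord to the aortic roof, and the ventral group (3 arrays) was tissue beneath the aorta. Both tissues were laser microdissected from cryosections of the same embryos, and how many embryos entered an array is not given in the sources used here. The study concerns the ventral tissue as a niche of hematopoietic stem cells, and its comparison sets this side against the dorsal one.

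IRG proteins and GBPs are GTPases of the cell's own defence, made mainly in response to interferon-gamma and, to a lesser degree, to type I interferons. Interferon binding to its receptor activates Janus kinases and STAT factors, which act through GAS elements, and IRF factors, which act through ISRE elements. Effector IRGs such as Iigp1 (Irga6) and Tgtp1 (Irgb6) assemble on the membranes of vacuoles that hold intracellular parasites and break them. Irgm1, Irgm2 and Igtp (Irgm3) are regulatory IRGs that sit on the host's own membranes and keep the effectors inactive there, and Irgm1 has also been studied in adult hematopoietic stem cells. GBPs are larger relatives that gather on the same vacuoles and on bacteria. Interferon signalling is known to contribute to the formation of hematopoietic stem cells in the embryonic aorta.

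The stretches before the annotated start of members are shown because they hold letters like those of the interferon elements named above. Sequences are those of RefSeq on GRCm38.p6 and were found for 7 members, Iigp1 not among them, namely Irgm1 (chr11:48871421-48871540, minus strand), Irgm2 (chr11:58214857-58214976, plus strand), Igtp (chr11:58199436-58199555, plus strand), Tgtp1 (chr11:48992247-48992366, minus strand), Gbp2 (chr3:142620543-142620662, plus strand), Gbp3 (chr3:142559924-142560043, plus strand) and Gbp7 (chr3:142530216-142530335, plus strand). Each is written 5′ to 3′ on the gene's strand and holds the 120 bases up to the base before the start, with matches to either motif in capitals.
Irgm1: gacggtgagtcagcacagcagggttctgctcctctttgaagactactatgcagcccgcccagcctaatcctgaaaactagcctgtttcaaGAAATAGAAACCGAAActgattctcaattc
Irgm2: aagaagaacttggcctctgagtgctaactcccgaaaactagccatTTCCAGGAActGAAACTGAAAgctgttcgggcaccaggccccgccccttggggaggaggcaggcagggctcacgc
Igtp: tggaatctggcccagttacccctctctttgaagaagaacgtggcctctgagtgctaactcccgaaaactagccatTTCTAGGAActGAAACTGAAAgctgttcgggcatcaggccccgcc
Tgtp1: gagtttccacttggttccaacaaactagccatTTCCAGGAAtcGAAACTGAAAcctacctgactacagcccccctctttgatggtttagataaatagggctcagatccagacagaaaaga
Gbp2: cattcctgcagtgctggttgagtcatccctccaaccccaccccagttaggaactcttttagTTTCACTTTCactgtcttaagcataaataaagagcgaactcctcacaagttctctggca
Gbp3: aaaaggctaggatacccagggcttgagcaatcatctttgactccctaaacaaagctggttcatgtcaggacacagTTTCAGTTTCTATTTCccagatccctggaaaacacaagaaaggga
Gbp7: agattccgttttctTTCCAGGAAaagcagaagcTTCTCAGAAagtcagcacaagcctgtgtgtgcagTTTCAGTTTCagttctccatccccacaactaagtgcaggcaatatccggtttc

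The ISRE-like motif was GAAA followed, after 2 bases of any kind, by GAAA, and the GAS-like motif was TTCNNNGAA, both searched on both strands from 250 bases before to 50 bases after each start. All 7 genes had an ISRE-like match, in 7 of their 8 windows, since a further window at an alternative start of Gbp3 had none. Over all 32851 windows of that length 3.44% held one. GAS-like matches lay in the windows of 4 genes, Irgm2, Igtp, Tgtp1 and Gbp7, against 8.30% of all windows. In Irgm2, Igtp and Tgtp1 the GAS-like match lay just ahead of the ISRE-like one. The printed stretches of Igtp and Irgm2, which are neighbours, shared an identical run of 38 bases, those of Tgtp1 and Irgm2 one of 20 bases, those of Tgtp1 and Igtp one of 14 bases, and those of Gbp3 and Gbp7 one of 13 bases. In Irgm1 and Gbp3 a pair of ISRE-like matches overlapped, as the map of motif matches shows. A match of letters is a description and not a site of binding.

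**Figure D1:**
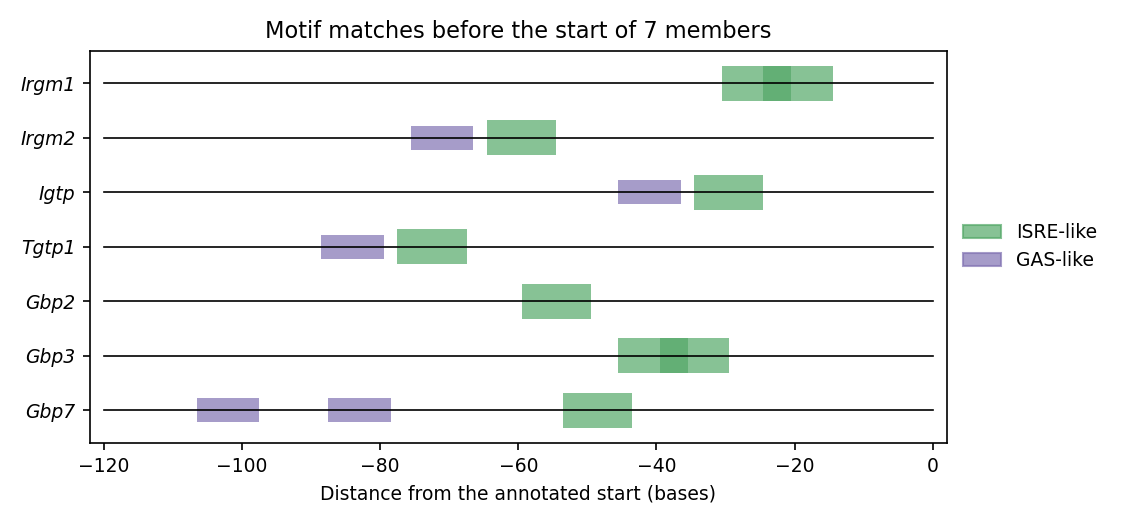
Positions of ISRE-like (green) and GAS-like (violet) matches in the 120 bases before the annotated start of 7 members; the horizontal axis is the distance from the start in bases. Each of the 7 lines holds at least 1 ISRE-like match, with first bases from −24 in Irgm1 to −77 in Tgtp1, and 4 lines hold a GAS-like match.

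Iigp1 was bright in ventral and dim in dorsal tissue. Its level (log2, as deposited) was 3.73, 4.93 and 4.42 on dorsal arrays 1, 2 and 3 and 8.04, 8.59 and 8.55 on ventral arrays 1, 2 and 3. The lowest ventral array lay more than 3 log2 units above the highest dorsal array, so the groups did not overlap. Ventral arrays averaged 8.39 ± 0.31 (SD, n = 3) and dorsal arrays 4.36 ± 0.60 (SD, n = 3). The fitted log2 fold change was 4.03 ± 0.20 (SE), or 16.4-fold. The same-numbered arrays differed by 4.30, 3.66 and 4.13. Among all named genes 3 had a larger positive difference. In bulk tissue a higher level can mean more cells that hold the transcript or more transcript per cell, and these cannot be told apart.

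As a measure of what a silent gene gives on these arrays, 1400 olfactory, vomeronasal and bitter taste receptor genes were used, whose 95th percentile lay between 4.17 and 4.40 on the 6 arrays and whose 99th lay between 5.71 and 5.95. All 3 ventral levels of Iigp1 were above the 99th percentile of their array. The dorsal levels were near the 95th percentile, above it on arrays 2 and 3 and below it on array 1, and none exceeded the 99th. The dorsal mean also lay below the brightness filter of 4.52, the median level of all probe sets. The 16.4-fold figure therefore compares array levels and may differ from the true ratio of transcript.

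**Figure D2:**
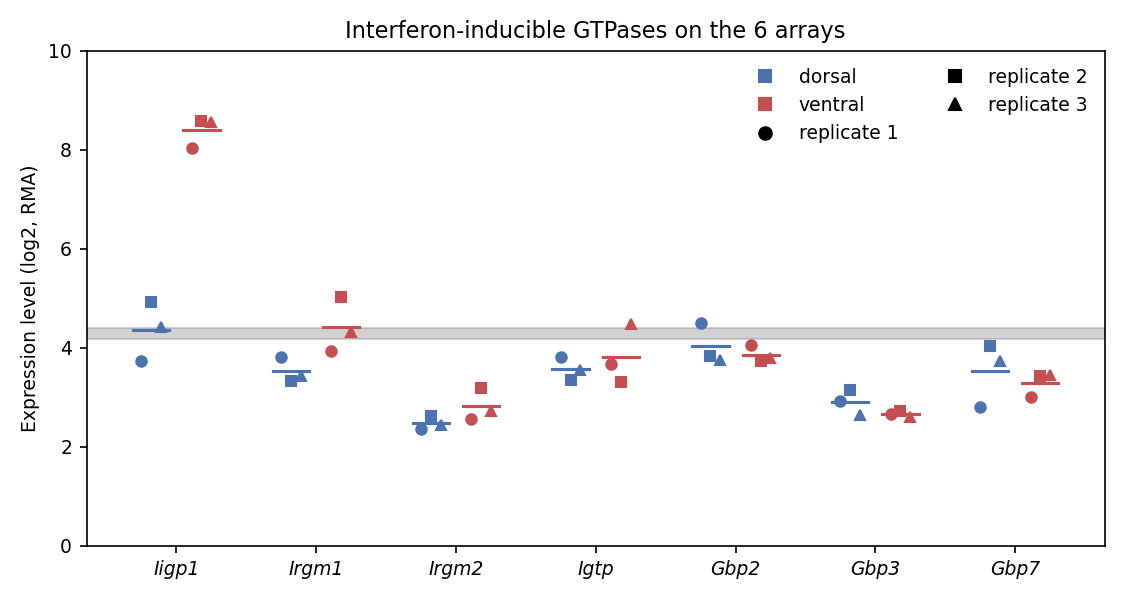
Expression level (log2) of the 7 measured members on each array; blue symbols are dorsal and red symbols ventral arrays, the symbol's shape gives the replicate number, bars are means of 3 arrays and the grey band spans the 95th percentile of silent receptor genes on the 6 arrays (4.17 to 4.40). Iigp1 on ventral arrays lies at 8.04 to 8.59, while the other members lie between 2.36 and 5.03 on all arrays.

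The regulatory IRGs stayed dim. Irgm1 was at 3.80, 3.33 and 3.43 on dorsal and at 3.94, 5.03 and 4.31 on ventral arrays 1, 2 and 3. Every ventral array was above every dorsal one, narrowly for ventral array 1, and only ventral arrays 2 and 3 exceeded the 95th percentile of silent receptor genes. Its log2 fold change was 0.91 ± 0.31 (SE), with differences of 0.14, 1.70 and 0.88 between same-numbered arrays. Without replicate 2 it was 0.51 and without replicate 1 it was 1.29, so the size of the difference moved with single pairs.

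Irgm2 was at 2.36, 2.62 and 2.43 on dorsal and at 2.57, 3.20 and 2.71 on ventral arrays 1, 2 and 3. It exceeded the 95th percentile on none of the 6 arrays, its groups overlapped, and its log2 fold change was 0.35 ± 0.15 with a positive difference in all 3 pairs. Igtp was at 3.82, 3.34 and 3.56 on dorsal and at 3.66, 3.30 and 4.48 on ventral arrays 1, 2 and 3. Only ventral array 3 was above the 95th percentile, and the log2 fold change of 0.24 ± 0.25 became −0.10 without replicate 3.

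The guanylate-binding proteins were dim in both tissues. Gbp2, a GBP that gathers on parasite vacuoles, was at 4.51, 3.84 and 3.75 on dorsal and at 4.06, 3.72 and 3.78 on ventral arrays 1, 2 and 3. Dorsal array 1 alone exceeded the 95th percentile, and the log2 fold change of −0.18 ± 0.16 became 0.06 without that array. Gbp3 was at 2.92, 3.15 and 2.64 on dorsal and at 2.65, 2.72 and 2.61 on ventral arrays 1, 2 and 3, a log2 fold change of −0.24 ± 0.15. Gbp7 was at 2.80, 4.03 and 3.73 on dorsal and at 3.00, 3.43 and 3.45 on ventral arrays 1, 2 and 3, a log2 fold change of −0.23 ± 0.19, which became 0.03 without dorsal array 2. Both were below the 95th percentile on all 6 arrays, and their groups overlapped.

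Only 1 of the 7 measured members, Iigp1, passed the brightness filter and entered the test over 12028 genes (limma, replicate number as block, adjusted p under 0.05). Its mean reached the filter through the ventral arrays. It was among the 0.308% of genes tested that were called higher in ventral tissue, where 0.208% were called higher in dorsal tissue, and since it was chosen with that call known, nothing is read from it. Of the 7 members, 2 (Iigp1 and Irgm1) had ventral arrays wholly above dorsal ones and 0 the reverse, where 6.24% and 5.97% of the 24015 named genes did so. Iigp1 was picked on this difference, so nothing is read from its separation either. Irgm1 separated narrowly, with its lowest ventral array at 3.94 and its highest dorsal array at 3.80. The median log2 fold change over the 6 members other than Iigp1 was 0.03, with 3 positive and 3 negative values from −0.24 to 0.91, and the median over all named genes was 0.00. At these levels a real difference of the dim members could be missed.

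A measure that the choice of Iigp1 did not use is the difference among the 3 replicate numbers, that is, between embryos or whatever else the numbers mark. Iigp1 did not pass the F-test of the replicate number (limma, adjusted p = 0.804), while 12 of the 12028 genes tested passed (0.0998%). It entered this test only because its ventral level lifted its mean over the filter. Its 3 dorsal levels lie around the 95th percentile of silent receptor genes and below the 99th. The p-value therefore does not show equal levels between replicates. Over both tissues, replicate 1 had the lowest Iigp1 level on the dorsal as well as on the ventral side.

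The wider GTPase families were examined through 33 further names of IRG, GBP and Mx genes, 18 of which had a named row. Mx proteins are interferon-induced GTPases that block viruses. Their median log2 fold change was −0.04, with 9 positive and 9 negative values from −0.31 to 0.69, and it became −0.09 without replicate 1, 0.04 without replicate 2, 0.01 without replicate 3, 0.02 without ventral array 2 and 0.01 without ventral array 3. Of these 18, 2 passed the brightness filter, and neither was called in limma. They were Gbp10 (log2 fold change −0.11 ± 0.20, adjusted p = 0.901) and Irgq (−0.09 ± 0.18, adjusted p = 0.924), an IRG-like gene. The highest value was that of Gm5431, an Irgb gene lying between Irgm1 and Tgtp1, which stood at 4.27 on ventral array 1 and at 1.85 to 2.65 on the other 5 arrays. Members of these families are close paralogs, so that probes of one can catch transcript of another.

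Iigp1 lies beside 3 further IRG genes, Gm4951 (Ifgga2), Gm4841 (Ifgga3) and F830016B08Rik (Ifgga4), in the RefSeq gene order. None of these had a difference like that of Iigp1. Gm4951 was at 2.44, 2.48 and 2.35 on dorsal and at 2.92, 2.51 and 2.69 on ventral arrays 1, 2 and 3, a log2 fold change of 0.28 ± 0.15. Gm4841 had one of −0.31 ± 0.16 and F830016B08Rik one of 0.26 ± 0.19. On that side Chsy3, an enzyme of chondroitin synthesis, followed (0.27 ± 0.22, adjusted p = 0.747). On the other side lay BC023105 (0.09 ± 0.14), Smim3 (0.18 ± 0.26), the dynactin subunit Dctn4 (0.02 ± 0.17) and the splicing factor Rbm22 (0.04 ± 0.18), and the last 3 were tested and not called (adjusted p of 0.880, 0.980 and 0.964 in limma).

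**Figure D3:**
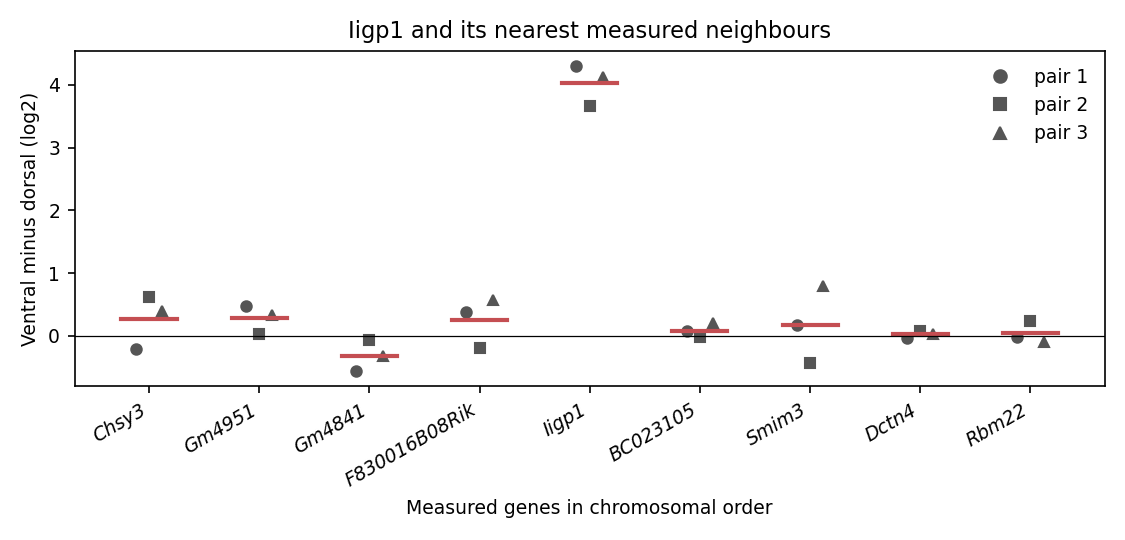
Ventral minus dorsal difference (log2) of Iigp1 and of the 4 nearest measured genes on either side, in chromosomal order; symbols are the 3 same-numbered pairs and red bars the fitted log2 fold change. Iigp1 stands at 4.03, and its neighbours lie between −0.31 and 0.28.

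The other members lie in 3 clusters, which were read in the same way. Beside Irgm1 and Tgtp1, Ifi47 (Irgd), another effector IRG, had a log2 fold change of −0.13 ± 0.13, and Gm12185, lying between them, one of 0.22 ± 0.15. Trim41 (−0.21 ± 0.21) and Snord95 (0.08 ± 0.19) were tested and not called, and Trim7 (−0.05), Snord96a (−0.32) and the olfactory receptor genes Olfr1396, Olfr56 and Olfr1395 (0.02 to 0.10) were too dim to test. Beside Igtp and Irgm2, Gm12250 (Irgb10), an effector IRG that acts on bacteria, had one of −0.29 ± 0.16, and Mrpl22, Gemin5, Gm12247, 4930438A08Rik, Zfp692, Zfp672 and Sh3bp5l lay between −0.26 and 0.02. Beside the GBP cluster, Gbp5 (0.19 ± 0.14) and Gbp2b (−0.08 ± 0.20) were dim, while the BMP receptor gene Bmpr1b (−1.04 ± 0.25) and the predicted gene Gm15689 (1.58 ± 0.49, adjusted p = 0.311) had the greatest differences of this neighbourhood. Pdlim5, Kyat3, Gtf2b, Pkn2 and A830019L24Rik lay between −0.33 and 0.24.

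Interferon ligands and receptors were compared next, because they stand upstream of the GTPases. Ifng, which encodes interferon-gamma, was at 3.74 to 4.24 on the 6 arrays, and Ifnb1, which encodes interferon-beta, was at 2.20 to 2.39 on the 6 arrays. Both were below the 95th percentile of silent receptor genes on all 6 arrays. Of 21 ligand genes with a row 8 were tested and none was called in limma (0 of 8, and 0 with an unadjusted p under 0.05). These 8 lay above the 95th percentile of silent receptor genes on all 6 arrays, the brightest being Ifnl2 at 6.75 to 6.97. Ifnl2 and Il27 were above the 99th percentile on all 6 arrays, Ifna4, Ifna5 and Ifnl3 on some, and Ifna7, Ifna14 and Ifna15 on none. Over all 12028 genes tested 10.7% had an unadjusted p under 0.05, and the counts of such genes given for each list stand beside that share. The highest and lowest tested values were those of Il27 (0.31 ± 0.17) and Ifna5 (0.22 ± 0.24) and of Ifna4 (−0.27 ± 0.21) and Ifna7 (−0.16 ± 0.18).

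Both chains of the interferon-gamma receptor were above the 95th percentile of silent receptor genes on all 6 arrays. The signalling chain Ifngr2 was at 7.31, 7.48 and 6.86 on dorsal arrays 1, 2 and 3 and at 7.84 to 8.07 on the ventral arrays. Its groups did not overlap, and its log2 fold change was 0.75 ± 0.18 (limma, adjusted p = 0.202). The ligand-binding chain Ifngr1 was at 6.13, 6.14 and 5.85 on dorsal and at 5.68, 5.75 and 5.82 on ventral arrays 1, 2 and 3. It lay below the 99th percentile of silent receptor genes on ventral array 1 and, narrowly, on ventral array 2. Its groups did not overlap in the opposite direction, narrowly, and its log2 fold change was −0.29 ± 0.18 (adjusted p = 0.662). The kinase gene Jak1, whose product binds that chain, had one of 0.53 ± 0.17 (adjusted p = 0.342), and Stat3, a factor downstream of interleukin-6 type cytokines, one of −0.40 ± 0.26 (adjusted p = 0.677). Irf1, an early target of interferon-gamma, was dim at 3.99 to 4.44 and differed by 0.06 ± 0.18. Of 15 tested genes of interferon receptors, JAK-STAT and IRF factors 0 were called, 2 had an unadjusted p under 0.05, and the median over the 24 genes with a row was 0.12.

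**Figure D4:**
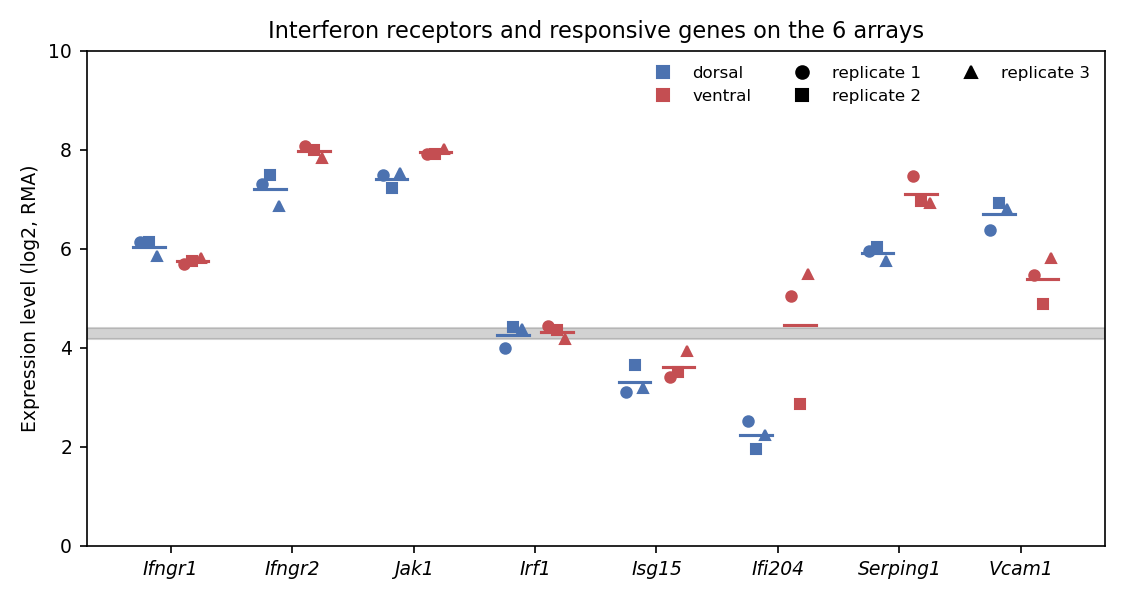
Expression level (log2) of interferon receptor chains, Jak1 and interferon-responsive genes on each array, with symbols, bars and grey band as in the plot of the members. Ifngr2, Jak1, Ifi204 and Serping1 have ventral arrays above dorsal arrays, and Vcam1 and, narrowly, Ifngr1 have the reverse. Isg15 lies below the band in both tissues.

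Other interferon-responsive genes differed far less than Iigp1. Of 50 antiviral genes 35 had positive values and the median was 0.12; 15 were tested, 0 were called in limma and 4 had an unadjusted p under 0.05. The median was 0.03 without ventral array 1 and 0.07 without replicate 1. Isg15, a ubiquitin-like protein that is among the most responsive genes to type I interferon, was below the 95th percentile on all 6 arrays, at 3.10 to 3.93, and differed by 0.31 ± 0.21. The highest tested values were those of Ifi27 (0.75 ± 0.17, adjusted p = 0.183) and the membrane protein gene Ifitm3 (0.64 ± 0.21, adjusted p = 0.348), and the lowest those of Ube2l6, an enzyme of ISG15 conjugation (−0.33 ± 0.24), and Eif2ak2, the kinase PKR (−0.32 ± 0.18). Ventral arrays were wholly above dorsal ones for 9 of the 50 genes and wholly below for 2, beside the 6.24% and 5.97% of all named genes given above.

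Below the brightness filter 1 antiviral gene, Ifi204, had a difference of more than 2 log2 units, and it is named after its value was seen. It encodes a DNA-binding protein of the p200 family and was at 2.52, 1.96 and 2.24 on dorsal and at 5.04, 2.86 and 5.48 on ventral arrays 1, 2 and 3. Ventral arrays 1 and 3 were above the 95th percentile of silent receptor genes and ventral array 2 was not. The log2 fold change was 2.22 ± 0.45, and it did not pass when all named genes were tested (limma, adjusted p = 0.303). It has close paralogs beside it, such as Ifi203 (−0.29 ± 0.14) and Ifi205 (−0.12 ± 0.16), whose transcripts its probes may also catch.

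Among 34 genes of the interferon-gamma response, antigen presentation and chemokines, 17 were tested, 0 were called in limma, 4 had an unadjusted p under 0.05 and the median over all 34 was 0.10. Serping1, the C1 inhibitor, was at 5.96, 6.03 and 5.75 on dorsal and at 7.46, 6.96 and 6.92 on ventral arrays 1, 2 and 3. Its groups were separate by almost 1 log2 unit, and its log2 fold change of 1.20 ± 0.19 came nearest to the threshold of all interferon list genes (adjusted p = 0.0723). The class I gene H2-D1 differed by 1.21 ± 0.47 with overlapping groups (adjusted p = 0.430) and is one of several near-identical genes. On the dorsal side stood the adhesion molecule Vcam1 (−1.31 ± 0.27, adjusted p = 0.132), which cytokines also induce, and the chemokine Ccl5 (−0.20 ± 0.21). Over the 5 lists of ligands, receptors, GTPases and responsive genes, 57 different genes were tested without the 8 members, 0 were called in limma, and 10 had an unadjusted p under 0.05. A difference of at least 1 log2 unit in either direction was found for 3.40% of the 147 genes with a row, against 1.79% of all named genes.

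IRG and GBP proteins reach their vacuoles with the help of the ubiquitin-like conjugation machinery of autophagy. Of 20 such genes 19 were tested, 0 were called in limma and 5 had an unadjusted p under 0.05, with a median of 0.07. Sqstm1, an adaptor of autophagy (0.55 ± 0.20), and Gabarapl1, a member of the Atg8 family (0.49 ± 0.19), had the highest tested values, and Atg10 (−0.72 ± 0.22) and Atg5 (−0.45 ± 0.18), which serve in the conjugation of Atg12, the lowest.

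**Figure D5:**
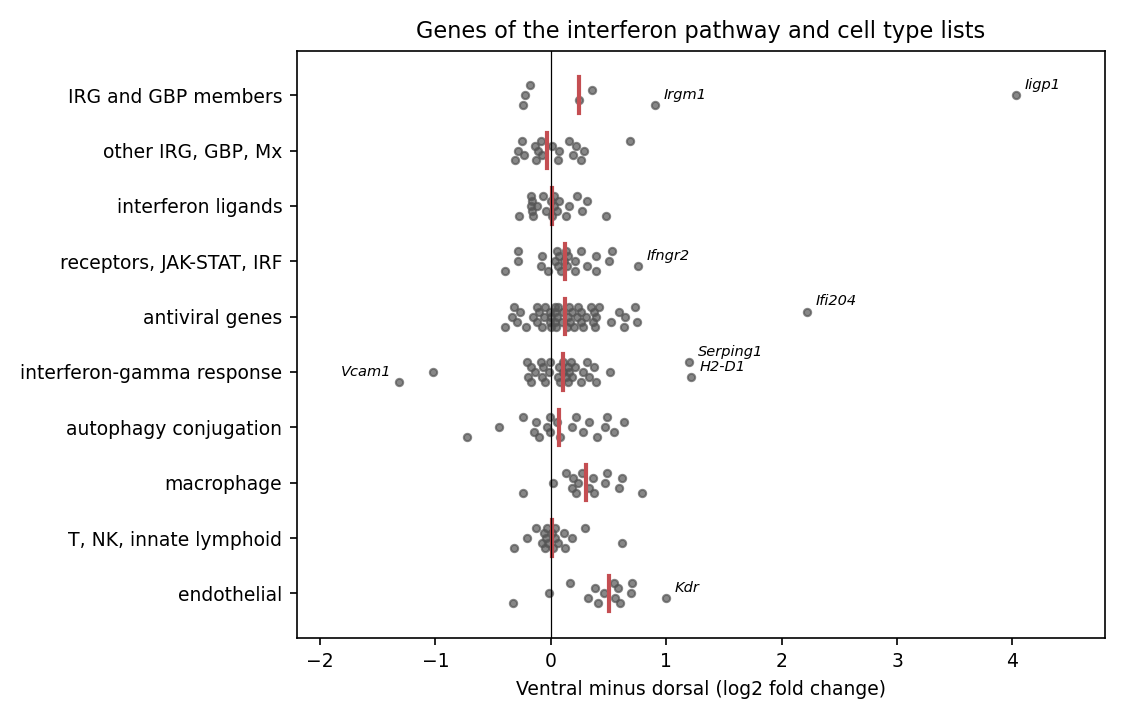
Ventral minus dorsal difference (log2 fold change) of every gene with a row in the members and in 9 lists; each grey point is a gene and each red bar a list's median. Iigp1 lies at 4.03, Ifi204 at 2.22, and the medians of the lists lie between −0.04 and 0.50.

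Markers of cells that could carry an interferon response were read beside Iigp1. T, NK and innate lymphoid markers had a median log2 fold change of 0.01 over 19 genes, with 10 positive values, and their mean level on an array, after each gene was centred on its own average, was −0.05 to 0.05 on dorsal and −0.09 to 0.07 on ventral arrays. The T cell gene Cd3e was at 2.86 to 3.37, below the 95th percentile of silent receptor genes. Of the 5 tested, Id2 (0.62 ± 0.32) and Prf1 (0.03 ± 0.22) were highest and Klrb1c (−0.06 ± 0.25) and Cd247 (−0.03 ± 0.17) lowest. Id2 was far brighter than the other tested markers, at 7.69 to 9.52 against 5.62 to 6.36 for Klrb1c, the next brightest. Whether its level comes from lymphoid cells was not tested.

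Macrophage markers were positive in 15 of 16 genes, with a median of 0.30 and values from Cd163 (−0.24 ± 0.15) to Lyve1 (0.79 ± 0.17), and 0 of 14 tested were called in limma, 3 having an unadjusted p under 0.05. Tyrobp (0.61 ± 0.21) came next, and Aif1 (0.02 ± 0.18) and Cd68 (0.13 ± 0.17) were the lowest tested. Their mean relative level was −0.09, 0.14 and −0.52 on dorsal and 0.41, 0.07 and −0.01 on ventral arrays 1, 2 and 3. It overlapped between the tissues and was highest on ventral array 1. Pan-hematopoietic and granulocyte markers had a median of 0.11 over 13 genes and overlapped as well (−0.44 to 0.42 on dorsal and 0.03 to 0.22 on ventral arrays), from Cd52 (1.08 ± 0.23) and Laptm5 (0.87 ± 0.41) to S100a8 (−0.39 ± 1.07) and Mpo (0.03 ± 0.27) among those tested. Endothelial markers were positive in 12 of 14 genes with a median of 0.50, from Kdr (1.00 ± 0.20) and Sox18 (0.70 ± 0.19) to Erg (−0.33 ± 0.22) and Sox17 (−0.01 ± 0.17), and 0 of 13 tested were called, 5 having an unadjusted p under 0.05. Their mean relative level was −0.50 to 0.15 on dorsal and −0.03 to 0.38 on ventral arrays. The part of macrophages and endothelium in the Iigp1 difference was not tested.

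The remaining lists describe the tissues and, like the others, were chosen with earlier results of these data known. Their calls are therefore a description and no independent check of the tissues. Of 7 tested sclerotome markers 2, Pax1 and Col2a1, were called higher in dorsal tissue, and of 10 markers of splanchnic and coelomic tissue 3, Tcf21, Gata6 and Hlx, were called higher in ventral tissue (limma). The sclerotome list ran from Pax9 (−2.69) and Pax1 (−2.60) to Sox9 (−0.89) and Meox1 (0.05), and the splanchnic list from Foxf1 (−1.71) and Hand2 (0.73) to Gata6 (3.19) and Tcf21 (4.70). All 8 erythroid genes had negative values (median −0.54, from Alas2 at −0.93 and Slc4a1 at −0.82 to Hbb-y at −0.29 and Epor at −0.24; 0 called, 4 with an unadjusted p under 0.05), and immediate early and heat shock genes had a median of 0.09 over 14 genes. The 10 tested ran from Jun at −0.26 and Hsph1 at −0.24 to Fos at 0.75 and Egr1 at 0.77, with 0 called and 0 with an unadjusted p under 0.05. Ventral array 3 stood apart in this list, with a mean relative level of 0.45 against −0.23 to −0.01 on the other 5 arrays, and same-numbered arrays differed in Fos by −0.02, 0.07 and 2.18.

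The 6 genes whose levels followed Iigp1 most closely over the 6 arrays, by Pearson's r among 10992 tested genes, with predicted, clone, microRNA, snoRNA and olfactory receptor names left out, were Stard9, Sox7, Rpn2, Hdac7, Hlx and Pacs1, with r from 0.989 to 0.997. The search could not have found the other members, which did not pass the brightness filter, and of further IRG and GBP genes it could have found only Gbp10 and Irgq. Stard9 (log2 fold change 0.68), a mitotic kinesin, and Sox7 (0.58), a SoxF factor of endothelium, had the highest r. Hlx (2.00), a homeobox factor of visceral mesenchyme, was at 5.11, 5.42 and 5.27 on dorsal and at 6.86, 7.41 and 7.52 on ventral arrays 1, 2 and 3. Rpn2 (0.13), Hdac7 (0.41) and Pacs1 (0.44) differed less. These correlations share the separation of the 2 tissues on few arrays, so many genes reach a high r, and they are a description only.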

How the data were processed

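Gene expression was measured on 6 arrays, 3 dorsal and 3 ventral by the titles of the samples. RNA in picogram amounts was amplified, per the labels' protocols (NuGEN Ovation Pico, SPIA) and hybridised to Affymetrix arrays; amplification can distort ratios of weak to strong transcripts. The deposited values are log2 levels, which the submitters' processing notes credit to Affymetrix Expression Console and RMA (background correction, quantile normalization and probe summary). Tool versions and the build were not given in the sources. Array medians were 4.49 to 4.55, and the number of arrays limits precision.

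Rows were named through the platform table (24015 of 24973), and list genes without a name there are not analysed here. Ventral minus dorsal was modelled with limma 3.58.1 under R 4.3.3 (lmFit, eBayes without trend, two-sided), replicate number entering as a blocking term, with Benjamini-Hochberg adjustment over the 12028 named genes whose mean reached the median of all probe sets (4.52). Each test had 6.41 degrees of freedom. Members below that level have their value and standard error from the fit of all named genes. SD is over 3 arrays. The fit was tested on simulated data. The reason for the block is that, by the labels, both tissues are from the same embryos. Whether a number marks an embryo is not stated, and deviations of same-numbered arrays correlated by 0.0992, 0.0763 and 0.226. Those of dorsal and ventral arrays with different numbers correlated by −0.153 to 0.0805. If the arrays are not separate embryos, p-values measure the spread between these samples only.

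Members and gene lists were chosen with earlier results of these data known. Named were all members, their measured neighbours, the 2 highest and 2 lowest tested genes of each list, every list gene past the threshold, a few fixed interferon genes, and the 6 genes most like Iigp1, the last without predicted, clone, microRNA, snoRNA and olfactory receptor names. Of 301 entries in 14 lists 270 had a named row. The planned comparison of protein features was not run because no protein table was used here. Alternatives were no block, no or another brightness filter, shifts to the same median, cyclic loess, an intensity trend, leaving out each pair, and, without the block, each array.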

Additional observations from a re-analysis of the deposited data

How the results depend on the processing

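The log2 fold change of Iigp1 was 3.72 to 4.32 under 12 alternatives, and 4.03 with no replicate block, where its standard error was 0.31 in place of 0.20. Of interferon list genes, 0 were called (adjusted p under 0.05 in limma) under each of 15 alternatives, and 10 had an unadjusted p under 0.05 in the fit with the block. The values of Igtp, Gbp2 and Gbp7 changed sign when single arrays or pairs were left out, and those of Iigp1, Irgm1, Irgm2 and Gbp3 did not. Over all genes tested, the ventral count was 37 and the dorsal count 25. These counts were 36 and 23 with no replicate block, 8 and 2 without the brightness filter and 56 and 38 with an intensity trend. The ventral count was 22 without replicate 3, and 16, 18, 9 and 13 without dorsal arrays 2 and 3 and ventral arrays 2 and 3; the dorsal count was 7 and 5 without dorsal array 2 and ventral array 3. Leaving out a pair, or a single array with no replicate block, gave 8 (without dorsal array 1) to 74 (without ventral array 1) higher in ventral and 4 (without dorsal array 1 or ventral array 2) to 30 (without ventral array 1) higher in dorsal tissue. Genes called for the replicate number were 0 without the filter. With each replicate's mean removed, 0 of the 6 genes most like Iigp1 were still among the 6 with the highest r, and by Spearman's rho 22 genes shared the highest value of 1.00, so no 6 could be named. Of 7 measured members, 1 exceeded the 95th and the 99th percentile of silent receptor genes on all ventral arrays. Motif counts of the members were the same in the bases before the start alone. The cause of these changes was not tested. Dim genes allow no statement that a difference is absent.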
